A study of Mus musculus with 7 samples.

Results

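The genes described here are 9 imprinted genes with roles in growth: H19, Igf2, Dlk1, Meg3, Plagl1, Mest, Peg3, Ndn and Grb10. They were taken by name from the 54532 genes of the transcript table, and all 9 were found. They were followed over 7 libraries of polyA RNA from cells that were sorted by fluorescence from the olfactory epithelium of young mice. Olfactory sensory neurons that had matured were collected from OMP-GFP mice on postnatal days 2, 7 and 16 (P2, P7 and P16, in 3 libraries). Progenitors, the Neurog1-expressing intermediate cells of the same epithelium, were collected from Neurog1-GFP mice on P3, P7, P9 and P16, in 4 libraries. A library here is a pool of sorted cells, with 1 library per age in each population, and the labels give neither the sex nor the number of animals. The ages therefore served as the replicates of a population, so a p-value here weighs an effect against the spread of the libraries. Population and mouse line coincide and cannot be told apart.

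Imprinted genes are expressed mainly from the copy inherited from 1 parent. Many of them act on fetal growth: paternally expressed genes such as Igf2 tend to promote it, and maternally expressed genes such as H19, Meg3 and Grb10 tend to restrain it. A group of imprinted genes is known to be strongly expressed in the fetus and to decline in many mouse organs after birth. The olfactory epithelium differs from most nervous tissue in that basal progenitors go on making sensory neurons after birth, so progenitors and mature neurons can be sampled at the same age.

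Several of these genes host microRNAs, short RNAs that pair with target messages through the seed at bases 2 to 8. Those that RefSeq places inside a member on GRCm38.p6 are printed because they share the transcript whose level is described below; libraries of polyA messenger RNA do not measure the mature microRNAs themselves. The miR-675 pair lies in an H19 exon, the miR-770 pair and miR-1906 in Meg3 exons, the miR-483 pair in an Igf2 intron and the miR-335 pair in a Mest intron. Capitals mark the seed, and each of the 9 seeds differs from the others.
miR-675-5p: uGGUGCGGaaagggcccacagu
miR-675-3p: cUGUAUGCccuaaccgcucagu
miR-770-5p: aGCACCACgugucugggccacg
miR-770-3p: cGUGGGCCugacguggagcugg
miR-1906: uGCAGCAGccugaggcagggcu
miR-483-5p: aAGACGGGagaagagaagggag
miR-483-3p: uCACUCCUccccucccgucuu
miR-335-5p: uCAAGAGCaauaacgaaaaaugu
miR-335-3p: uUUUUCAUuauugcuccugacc

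RefSeq promoter windows (250 bases before to 50 after a transcript start, GRCm38.p6) were given for 8 of the 9 members, in 15 windows, and H19 had none. Shown are a window each of Meg3 and Grb10, whose TPM was lower at each next age in both populations, and that of Peg3, whose TPM was not.
Meg3, chr12:109540746-109541045, plus strand: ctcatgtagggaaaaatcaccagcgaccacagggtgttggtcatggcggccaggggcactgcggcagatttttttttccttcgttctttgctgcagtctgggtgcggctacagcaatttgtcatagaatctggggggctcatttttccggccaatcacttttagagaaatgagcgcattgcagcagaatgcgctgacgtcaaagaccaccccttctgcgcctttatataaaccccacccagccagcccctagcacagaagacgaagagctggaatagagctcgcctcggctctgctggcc
Grb10, chr11:12027922-12028221, minus strand: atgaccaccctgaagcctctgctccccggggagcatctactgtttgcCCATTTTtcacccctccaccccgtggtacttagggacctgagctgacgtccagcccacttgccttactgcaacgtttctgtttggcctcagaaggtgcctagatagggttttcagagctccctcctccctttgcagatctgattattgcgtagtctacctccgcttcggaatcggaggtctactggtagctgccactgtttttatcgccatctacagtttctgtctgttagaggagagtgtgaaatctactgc
Peg3, chr7:6730370-6730669, minus strand: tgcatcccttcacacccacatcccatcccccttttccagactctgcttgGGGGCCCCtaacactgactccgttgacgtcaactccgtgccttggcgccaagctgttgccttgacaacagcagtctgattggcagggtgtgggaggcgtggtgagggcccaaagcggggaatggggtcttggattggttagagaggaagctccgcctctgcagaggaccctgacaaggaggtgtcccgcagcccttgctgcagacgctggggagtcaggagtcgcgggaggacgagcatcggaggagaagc

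Capitals in the Peg3 window mark GGGGCCCC, the element bound by the Plagl1 protein, and those in the Grb10 window mark CCATNTT, the core bound by YY1, both searched on both strands. GGGGCCCC was found in this 1 of the 15 members' windows and in 1.08% of all 32851 windows. CCATNTT was found in 2 of the 15, the Grb10 window shown and an Igf2 window, and in 16.1% of all windows. The E2F letters TTTCCCGC and TTTGGCGC were in none of the 15, against 1.07% and 0.514% of all windows. The members' windows had a median GC content of 59.3%, against 52.7% over all windows. A match is a string of letters and not a shown binding site.

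Each library held 24203965 to 25930727 counts on genes. The summed TPM of 12 mature neuron markers was 14982 to 19510 in mature neurons and 5522 to 8176 in progenitors, and that of 10 progenitor markers was 59.4 to 131 in mature neurons and 1235 to 1747 in progenitors. Omp itself, the olfactory marker protein, did not separate the populations, with 1066, 1413 and 1630 TPM in mature neurons and 1981, 1323, 2371 and 2306 TPM in progenitors. Neurog1, the proneural factor of the progenitors, did, with 0.84 to 1.85 TPM in mature neurons and 292 to 698 TPM in progenitors. The P16 mature neuron library stood apart in blood markers. Its 8 erythroid markers summed to 3037 TPM, against 371 and 440 TPM in the P2 and P7 mature neuron libraries and 195 to 1364 TPM in progenitors. Those 3037 TPM are 0.304% of that library's total. What the members' counts, slopes in mature neurons and population differences become without this library is given with those results below.

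Of the 8 members whose TPM averaged at least 1, 7 had a lower TPM at the last age than at the first in both populations, against 32.7% of the 16869 genes at that level. A difference of at least 2-fold in both populations was seen for 5 of the 8, H19, Igf2, Meg3, Ndn and Grb10, against 2.06% of all genes. Within mature neurons it was 6 of 8, with Mest added, against 10.4%, and within progenitors 5 of 8, against 4.43%. When P16 mature neurons were left out, 6 of the 8 were lower at the last age left in both populations, against 24.3%, and 3 were at least 2-fold lower in mature neurons, against 2.35%. Then also 3 members met the 2-fold mark in both populations, H19, Igf2 and Meg3, against 0.439% of genes. Without both P16 libraries it was met by 2, H19 and Igf2 (0.439%). It was met by 3 without the P16 progenitor library and by 2 without that of P3. The share of all genes was not computed for these, so those counts stand without a background. The summed TPM of the 9 members was 112.62, 72.17 and 44.31 at P2, P7 and P16 in mature neurons, and 177.74, 142.01, 130.26 and 105.77 in progenitors at P3, P7, P9 and P16. The members were chosen with earlier results of these data known, so these counts describe them and do not test them independently. In such pools, fewer cells that express a gene and less RNA per cell cannot be told apart.

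**Figure D1:**
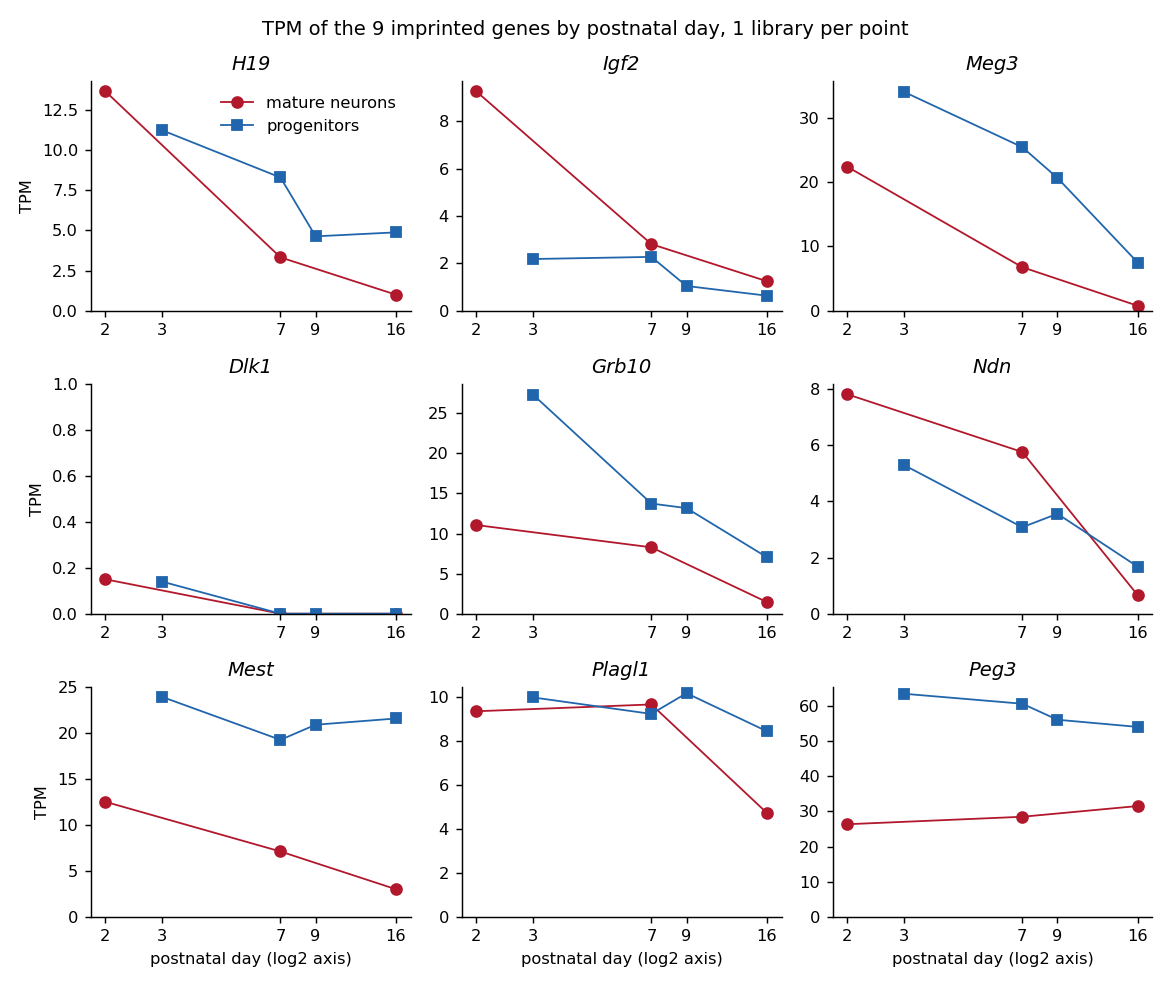
TPM (vertical axis, from 0) of each of the 9 genes by postnatal day (horizontal axis, log2 scale) in mature neurons (red circles) and progenitors (blue squares), with 1 library per point and no error bar. H19, Igf2 and Meg3 were already more than 3-fold lower at P7 than at P2 in mature neurons, Ndn, Grb10 and Plagl1 kept most of their level until P7, and Peg3 stayed between 26.35 and 31.54 TPM.

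H19 (ENSMUSG00000000031, GRCm38 chr7:142575529-142578143, minus strand) is the maternally expressed long noncoding RNA that lies next to Igf2 and shares its imprinting control region. It had 13.68, 3.32 and 0.99 TPM at P2, P7 and P16 in mature neurons, from 397, 102 and 30 counts. Progenitors had 11.25, 8.30, 4.63 and 4.88 TPM at P3, P7, P9 and P16. Mature neurons thus started above every progenitor library and ended below every one, 13.8-fold lower at P16 than at P2, against 2.31-fold between P3 and P16 in progenitors. The steps in mature neurons were 4.12-fold before P7 and 3.35-fold after it.

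Igf2 (ENSMUSG00000048583, GRCm38 chr7:142650766-142666816, minus strand) encodes insulin-like growth factor 2, the paternally expressed fetal growth factor. Its level was 9.27, 2.81 and 1.24 TPM in mature neurons, against 2.18, 2.27, 1.04 and 0.63 TPM in progenitors. It was the member with a higher TPM in mature neurons at both ages that the populations share, 1.24-fold at P7 and 1.97-fold at P16, although the populations overlapped. The gene-level counts miss it: the 7 libraries held 15 counts in all, and 62.8% of its exonic bases also belong to Gm49394 on the same strand, a gene listed at 0 TPM in every library. Its values therefore come from TPM only, and how reads are shared between these annotations can change them.

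Meg3 (ENSMUSG00000021268, GRCm38 chr12:109541001-109571726, plus strand) is a maternally expressed long noncoding RNA of the Dlk1-Dio3 domain. It had 22.42, 6.76 and 0.74 TPM in mature neurons and 34.08, 25.45, 20.66 and 7.45 TPM in progenitors. Every step was downward in TPM in both populations, although in CPM, counts scaled to library size, progenitors were level between P7 and P9, at 20.5 and 20.7. The first-to-last difference in mature neurons, 30.3-fold, was the largest of any member. At matched ages its TPM in mature neurons was 0.266 times that in progenitors at P7 and 0.0993 times at P16. Most of the change in progenitors came late, 2.77-fold between P9 and P16.

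Dlk1 (ENSMUSG00000040856, GRCm38 chr12:109452823-109463336, plus strand) encodes a transmembrane ligand of the Notch family and is the paternally expressed partner in the Meg3 domain. It was barely detectable. The P2 mature neuron library had 0.15 TPM and the P3 progenitor library 0.14 TPM, from 1 count each, and the other 5 libraries had 0 counts, which in each allows up to 3. No age or population difference was detectable at this depth.

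Grb10 (ENSMUSG00000020176, GRCm38 chr11:11930508-12038683, minus strand) encodes an adaptor that binds the insulin and IGF1 receptors and restrains their signalling, and it is expressed from the maternal copy in most tissues and from the paternal copy in neurons. It had 11.06, 8.28 and 1.44 TPM in mature neurons, against 27.34, 13.74, 13.17 and 7.04 TPM in progenitors. Like Meg3, it had a lower TPM at each next age in both populations, which held for 2 of the 8 members and for 2.34% of all genes. In CPM, which come from the counts, this held for Grb10 alone of the 7 members tested, against 2.7% of genes, and by a small step between P7 and P9, at 33.3 and 33.2 CPM. The large step in mature neurons lay between P7 and P16, 5.75-fold, whereas progenitors had a 1.99-fold step between P3 and P7 and a 1.87-fold step between P9 and P16.

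Ndn (ENSMUSG00000033585, GRCm38 chr7:62346569-62350262, plus strand) encodes necdin, a MAGE family protein of postmitotic neurons from the Prader-Willi domain. Mature neurons had 7.82, 5.76 and 0.65 TPM and progenitors 5.30, 3.08, 3.56 and 1.67 TPM. Its level was the higher in mature neurons at P7, 1.87-fold, and the lower there at P16, at 0.389 times that in progenitors. Most of the difference in mature neurons, 8.86-fold, lay between P7 and P16.

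Mest (ENSMUSG00000051855, GRCm38 chr6:30723547-30748465, plus strand) encodes a protein of the alpha/beta hydrolase fold and is expressed from the paternal copy. It had 12.54, 7.12 and 3.0 TPM in mature neurons, against 23.98, 19.29, 20.94 and 21.62 TPM in progenitors. The populations did not overlap, and the age course was in mature neurons: 4.18-fold lower at P16 than at P2 there, against 1.11-fold between P3 and P16 in progenitors. The gene shares 23.1% of its exonic bases with Copg2 on the opposite strand. Copg2 itself had 66.78, 65.47 and 58.13 TPM in mature neurons and 49.99 to 53.38 TPM in progenitors.

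Plagl1 (ENSMUSG00000019817, GRCm38 chr10:13060504-13131694, plus strand) encodes a paternally expressed zinc finger transcription factor that is known to act on other imprinted genes. Mature neurons had 9.33, 9.64 and 4.71 TPM and progenitors 9.96, 9.21, 10.15 and 8.42 TPM. All libraries except that of P16 mature neurons lay between 8.42 and 10.15 TPM, so its age difference in mature neurons rests on that library.

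Peg3 (ENSMUSG00000002265, GRCm38 chr7:6703892-6730431, minus strand) encodes a large paternally expressed zinc finger protein. It had 26.35, 28.48 and 31.54 TPM in mature neurons, against 63.51, 60.67, 56.11 and 54.06 TPM in progenitors. It was the most abundant member per length in both populations, and the populations did not overlap. At the ages that both have, its TPM in mature neurons was 0.469 times that in progenitors at P7 and 0.583 times at P16. Its TPM was a little higher at each next age in mature neurons and a little lower at each next age in progenitors, which no other member showed.

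These age courses were tested on counts with edgeR's quasi-likelihood test, which gave slopes in log2 units per doubling of the postnatal day, with Benjamini-Hochberg adjustment over all 17975 genes that passed the filter on low counts. Of the members, 7 passed it, while Igf2 and Dlk1 did not. At an adjusted p of 0.05, 0 of the 7 were called in either population, for the slope shared by both, or for the difference between them, and so were 0 of the 17975 genes (0.0%) in each. At an unadjusted p of 0.05, 6 of the 7 members had a downward slope in mature neurons, against 1688 genes or 9.39%. The same held for 4 of the 7 in progenitors, against 5.71%, and for 6 of the 7 for the shared slope, against 11.2%. Without the P16 mature neuron library it held for 4 of the 7 in mature neurons, against 1.39%. For the shared slope it then held for 4 of the 7, against 6.75%. Here and below, a mature neuron slope fitted without a library of mature neurons runs exactly through those left. Its p-value then takes a gene's own spread from the progenitor libraries alone.

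**Figure D2:**
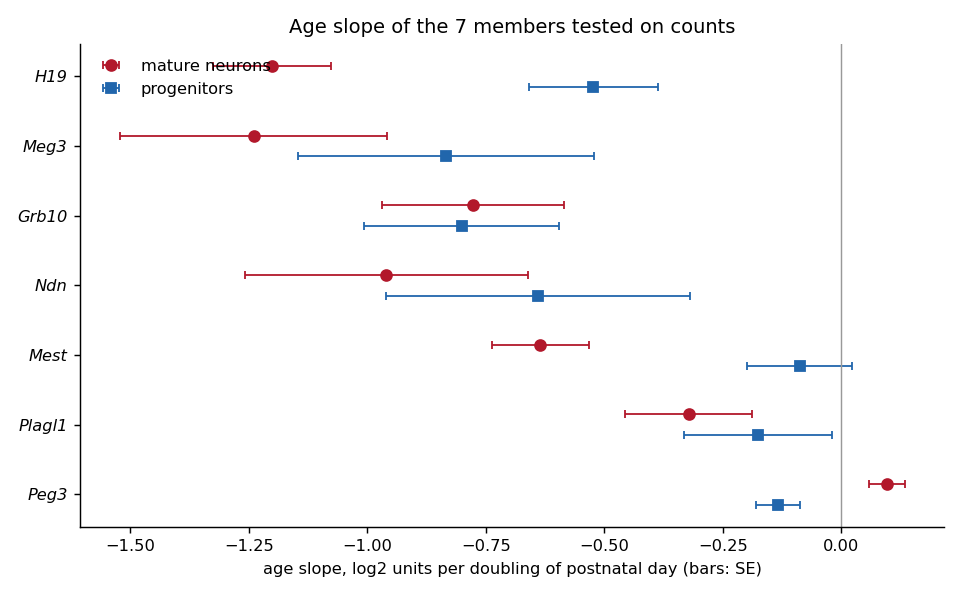
Age slope (horizontal axis, log2 units per doubling of postnatal day, edgeR, bars are SE) of the 7 tested members in mature neurons (red circles, 3 libraries) and progenitors (blue squares, 4 libraries). H19, Meg3, Ndn and Grb10 lie below 0 in both populations, Mest and Plagl1 mainly in mature neurons, and Peg3 lies above 0 in mature neurons and below 0 in progenitors.

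The slopes in mature neurons were -1.24 ± 0.28 for Meg3 (SE), -1.20 ± 0.12 for H19, -0.96 ± 0.30 for Ndn, -0.78 ± 0.19 for Grb10, -0.63 ± 0.10 for Mest, -0.32 ± 0.13 for Plagl1 and 0.10 ± 0.04 for Peg3. Their edgeR adjusted p ran from 0.156 for H19 and Mest to 0.269 for Plagl1. In progenitors the slopes were -0.83 ± 0.31 for Meg3, -0.80 ± 0.21 for Grb10, -0.64 ± 0.32 for Ndn, -0.52 ± 0.14 for H19, -0.18 ± 0.16 for Plagl1, -0.13 ± 0.05 for Peg3 and -0.09 ± 0.11 for Mest. The median slope of the 7 members was -0.78 in mature neurons and -0.52 in progenitors, against medians near 0 over all tested genes. For both populations together, H19 (-0.90 ± 0.15) and Grb10 (-0.79 ± 0.13) had the smallest edgeR adjusted p of the members, 0.0586 each, followed by Meg3 (-1.06 ± 0.21, 0.0641) and Ndn (-0.81 ± 0.21, 0.0945). Igf2, tested with limma on log2(TPM + 1), had a slope of -0.74 ± 0.12 in mature neurons (adjusted p 0.216) and -0.41 ± 0.15 in progenitors (0.528), on a scale that understates changes of low genes.

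Whether the slopes were called depended on the tool and on single libraries. DESeq2 on the same counts called 5 of the 7 members lower with age in mature neurons (H19, Meg3, Ndn, Grb10 and Mest), against 2.68% of the genes it tested in that direction. It called 1 in progenitors, Grb10, against 0.549%, and those 5 for the shared slope, against 5.26%. With the day itself in place of its log2, edgeR called 6 members in mature neurons, against 4.01% of genes, and 0 in progenitors. Without the P16 mature neuron library neither fit called a member in mature neurons, where DESeq2 called 0.0109% of genes lower. DESeq2 then called 3 in progenitors, Grb10, Meg3 and Ndn, against 0.94%, and 4 for the shared slope, those and H19, against 1.02%. The P16 mature neuron library carried most of the slope of Ndn, Grb10 and Plagl1: without it their slopes in mature neurons were -0.26, -0.27 and 0.04. Meg3 and Mest moved to -0.66 and -0.41 without it, and H19 stayed at -1.08. Peg3 moved to 0.03 ± 0.06 without it, and Igf2, with limma on log2(TPM + 1), was at -0.79. Without the P7 mature neuron library edgeR called 6 of the 7 in mature neurons, against 2.85% of genes. Without that of P2 it called 2, Grb10 and Ndn, against 0.718%. In these fits, too, the mature neuron libraries left lie exactly on the line, so the p-values take no spread from mature neurons.

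Differences between the 2 slopes, mature neurons minus progenitors, were -0.68 ± 0.19 for H19, -0.55 ± 0.15 for Mest and 0.23 ± 0.06 for Peg3, with unadjusted p of 0.00866, 0.00873 and 0.00613. None passed the adjustment (edgeR adjusted p 0.806 each), and 0 of 17975 genes did. DESeq2 called 6 genes (0.034%), none of them a member. Without the P16 mature neuron library the 3 differences were -0.55 for H19, -0.33 for Mest and 0.16 for Peg3, and that of Grb10 was 0.53. The slope of Grb10 was nearly equal in both populations, with a difference of 0.02 ± 0.29. This interval still spans a difference of the size seen for Plagl1, so it does not show that the slopes are alike.

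Between the populations, 2 of the 7 tested members were called, and both were lower in mature neurons: Peg3 at a log2 fold of -0.90 ± 0.10 (SE), with an edgeR adjusted p of 0.000168, and Mest with -1.40 ± 0.39 (0.014). Of all 17975 genes, 30.0% were called lower in mature neurons and 58.8% in either direction, so the members' share was not above that of all genes. In TPM, Peg3 averaged 28.8 ± 2.61 in mature neurons and 58.6 ± 4.29 in progenitors, and Mest averaged 7.55 ± 4.78 in mature neurons and 21.5 ± 1.95 in progenitors (SD, n = 3 and n = 4). Those were also the 2 of 8 members whose populations did not overlap, against 59.7% of all genes. The other 5 tested members had log2 folds of -0.94 ± 0.62 for Grb10, -0.89 ± 0.82 for Meg3, -0.21 ± 0.27 for Plagl1, -0.03 ± 0.71 for H19 and 0.58 ± 0.67 for Ndn. Without the P16 mature neuron library Mest was at -1.02 and Peg3 at -0.999. Grb10 was then at -0.48, Meg3 at -0.35, Plagl1 at 0.08 and H19 at 0.47. Ndn was called higher in mature neurons there, at 1.09 (edgeR adjusted p 0.032), and 10772 of 18382 genes were called in either direction. With limma on log2(TPM + 1) Igf2 was called higher too, at 1.37 (adjusted p 0.0317). These fits hold no age term and set mature neurons of P2 and P7 against progenitors of P3, P7, P9 and P16. At P16 Ndn in mature neurons had 0.389 times the TPM in progenitors.

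Age entered this comparison as spread. With only P7 and P16, the 2 ages that both populations have, and no age term, Peg3 and Mest were called, against 20.6% of genes called lower. With age as a block in the same 4 libraries, 5 of the 7 members were lower in mature neurons: Mest at -1.92, Meg3 at -1.77, H19 at -1.42, Grb10 at -1.11 and Peg3 at -0.79, with edgeR adjusted p between 0.00157 and 0.0151, against 25.7% of all genes called lower. With population and age both fitted to 4 libraries, little is left to estimate the spread from. The folds of those 4 libraries without the block were -1.83 for Mest, -1.37 for Meg3, -1.26 for H19, -0.86 for Grb10 and -0.78 for Peg3. Leaving out the P2 mature neuron library alone also moved the folds, to -1.94 for Mest, -1.93 for Meg3, -1.46 for Grb10 and -1.43 for H19, with Peg3 and Mest called, against 27.4% of genes. Over all 7 libraries with log2 of the day as a covariate, 4 were called, against 32.2% of genes, namely Peg3, Mest (-1.68), Grb10 (-1.26) and Meg3 (-1.64), while H19 had -0.84 with an adjusted p of 0.0534. Without both P16 libraries and with no age term, Ndn was higher in mature neurons, by 0.87 ± 0.26 (edgeR adjusted p 0.0216). In that fit 10513 of 18209 genes were called in either direction.

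**Figure D3:**
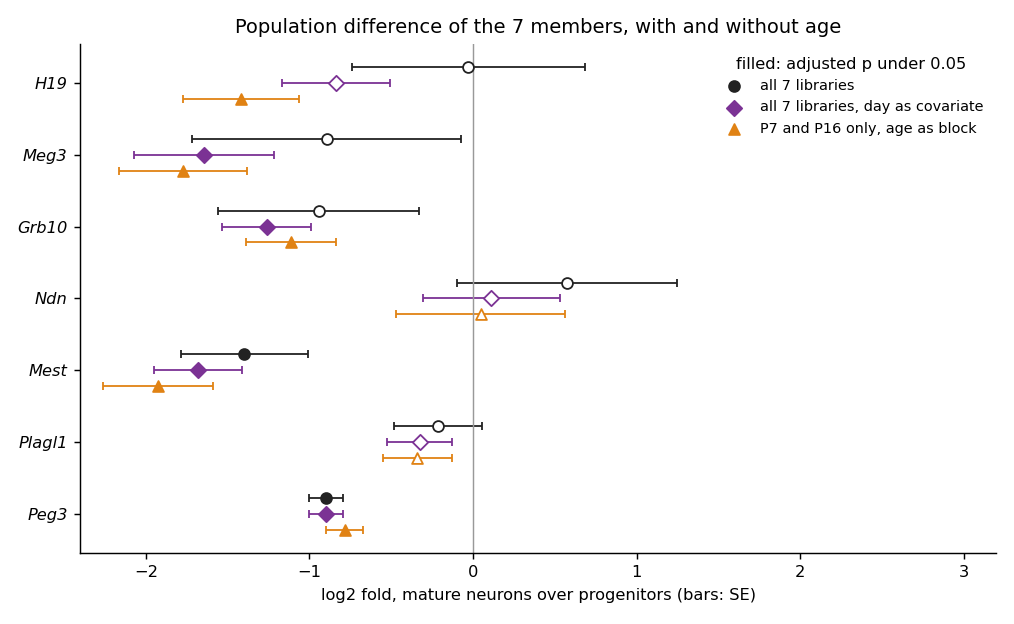
Log2 fold of mature neurons over progenitors (horizontal axis, bars are SE) for the 7 tested members in 3 edgeR fits: all 7 libraries (black circles), all 7 with log2 of the day as covariate (purple diamonds), and P7 and P16 only with age as a block (orange triangles). Filled symbols have an adjusted p under 0.05; Peg3 and Mest are filled in all 3 fits, Meg3 and Grb10 in the 2 that hold age, H19 in the last, and Ndn and Plagl1 in none.

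The genes around the members were read from a list of 50 neighbours, of which 28 were tested. Between the populations 4 of the 28 were higher and 10 lower in mature neurons, against 28.8% and 30.0% of all genes, so fewer were called than the 58.8% of all genes. Their median log2 fold was -0.09, against 0.01 over all tested genes. Rian, the long noncoding RNA downstream of Meg3 in the same domain, had 33.11, 17.75 and 1.51 TPM in mature neurons and 56.78, 31.79, 31.38 and 12.77 TPM in progenitors. Its slopes, -1.21 in mature neurons and -0.93 in progenitors, were close in size to those of Meg3 (edgeR adjusted p of the shared slope 0.0586), and without the P16 mature neuron library the slope in mature neurons was -0.60. Mirg, further along that domain, was at or below 1.94 TPM in every library. Outside the imprinted part of the domain, Yy1 and Wars stayed at 36.6 to 40.91 TPM and 44.83 to 49.3 TPM in mature neurons.

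In the H19 and Igf2 region, Ins2 was listed at 0 TPM in all 7 libraries and Th and Ascl2 were at or below 0.22 TPM. Cdkn1c, a maternally expressed inhibitor of the cell cycle, was lower in mature neurons with a log2 fold of -1.29 ± 0.24 (edgeR adjusted p = 0.00211), with 13.34, 14.19 and 6.17 TPM in mature neurons and 25.8 to 30.32 TPM in progenitors. Like Plagl1 it was near its early level at P7 and low in the P16 mature neuron library, without which the log2 fold was -1.01. Of the same region, Cd81, a tetraspanin gene, and Kcnq1, a potassium channel gene, were higher in mature neurons. Cd81 had a log2 fold of 0.63 ± 0.08 (edgeR adjusted p = 0.000262), at 568.67 to 612.17 TPM in mature neurons and 363.44 to 436.56 TPM in progenitors. Kcnq1 had a log2 fold of 1.71 ± 0.23 (0.000358), at 22.97, 26.71 and 15.43 TPM in mature neurons and 4.97 to 8.5 TPM in progenitors. Slc22a18, an imprinted transporter gene of the same region, had 8.87, 6.89 and 3.55 TPM in mature neurons. In progenitors it had 5.97, 5.09, 5.01 and 2.40 TPM. Of 24 neighbours with a mean TPM of at least 1, 2 were at least 2-fold lower at the last age in both populations. These were Slc22a18 and Rian, against 2.06% of all genes.

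Usp29, the deubiquitinase gene that shares its promoter region with Peg3, was lower in mature neurons with a log2 fold of -1.60 ± 0.13 (edgeR adjusted p = 3.68e-05), at 4.19, 3.86 and 3.44 TPM in mature neurons and 10.84 to 15.39 TPM in progenitors. Zim1, on the other side of Peg3, was lower as well, with a log2 fold of -2.06 ± 0.34 (0.00111), at 0.04 to 0.09 TPM in mature neurons and 0.23 to 0.46 TPM in progenitors. Cpa4, a carboxypeptidase gene near Mest, and Fignl1, a gene near Grb10, were lower too, with log2 folds of -4.01 ± 0.46 (0.000154) and -1.59 ± 0.24 (0.00063). Around Ndn, Magel2 and Peg12 were at or below 0.06 TPM, and Snrpn, which encodes a splicing protein, had 77.42, 70.2 and 37.83 TPM in mature neurons and 48.98 to 60.25 TPM in progenitors.

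**Figure D4:**
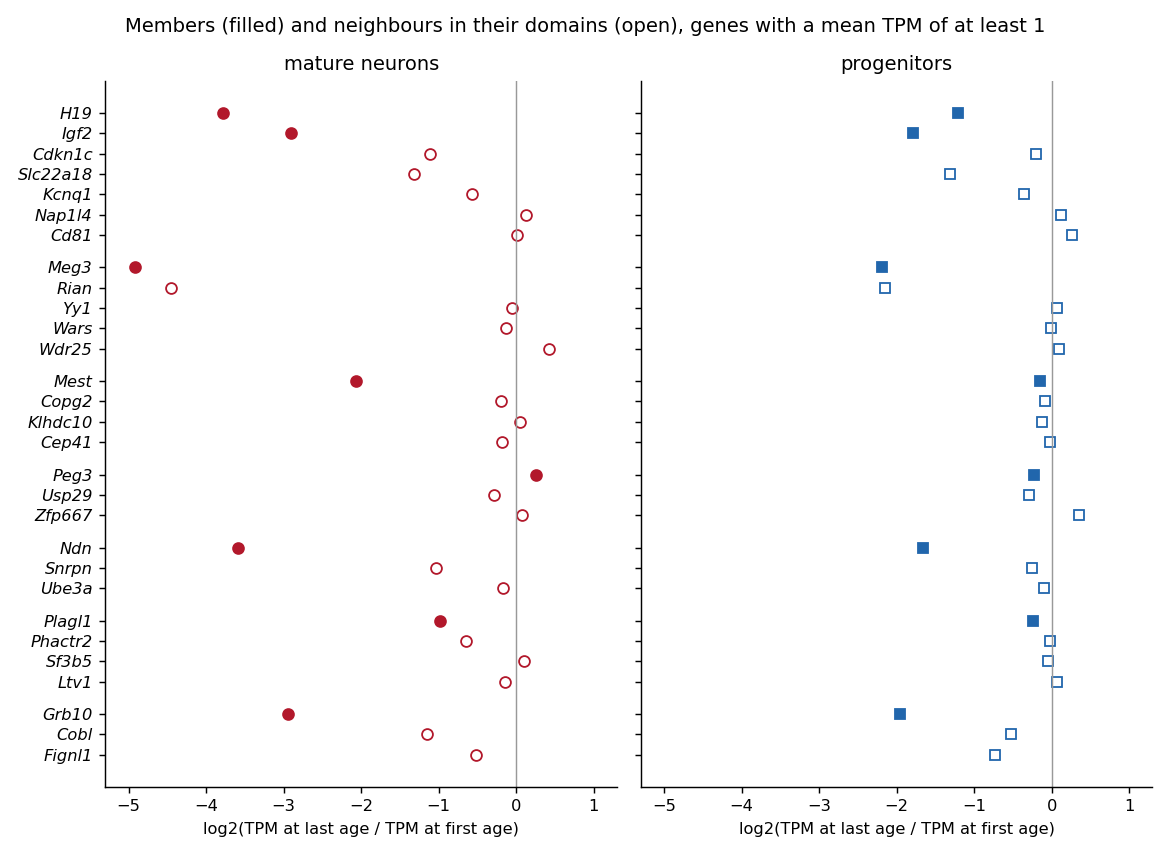
Log2 ratio of the TPM at the last age to that at the first (horizontal axis), grouped by domain from top to bottom. Members are filled, and most of their neighbours with a mean TPM of at least 1 are open. Panels show mature neurons (left, P16 over P2) and progenitors (right, P16 over P3), with 1 library at each age. Begain, Snurf and Tssc4 were not drawn. First over last, in mature neurons and progenitors, Begain was 2.64 and 1.84, Snurf 2.36 and 1.17, and Tssc4 0.94 and 1.05. Rian lies beside Meg3 in both panels, whereas most neighbours of the other members lie closer to 0 than the member itself.

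Among 58 other imprinted genes, 37 were tested, and 9 were higher and 10 lower in mature neurons, likewise below the 58.8% of all genes, with a median log2 fold of 0.09. Nnat, the neuronatin gene, was lower with a log2 fold of -3.80 ± 0.32 (edgeR adjusted p = 3.84e-05), with 8.2, 11.47 and 8.2 TPM in mature neurons and 211.54, 130.35, 110.15 and 93.58 TPM in progenitors. Gnas, which encodes the stimulatory G protein alpha subunit, was lower with a log2 fold of -2.20 ± 0.22 (7.78e-05), with 138.9, 115.48 and 70.21 TPM in mature neurons and 501.02 to 652.48 TPM in progenitors. H13, a signal peptide peptidase gene, and Dlx5, a homeobox gene, were lower as well, with log2 folds of -0.80 ± 0.07 (4.53e-05) and -2.56 ± 0.25 (6.57e-05). Unadjusted, 12 of the 37 had a downward slope in mature neurons, against 9.39% of all genes, and 4 an upward slope, and the median slope was -0.12. With mature neurons of P16 left out, 2 of 41 did, against 1.39%, and the median was -0.03. Of the 30 with a mean TPM of at least 1, 2 were at least 2-fold lower at the last age in both populations. They were Slc22a18 and Rian, against 2.06% of all genes at that level. The 5 members at that mark were thus not matched by most other imprinted genes, a difference that was not tested. Members and lists were chosen with earlier results of these data known, so this contrast is a description only.

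The IGF axis, the ligands, receptors, binding proteins and adaptors through which Igf2 and Grb10 act, had 36 listed genes, 29 of them tested, with 7 higher and 10 lower in mature neurons, against 28.8% and 30.0% of all genes. Igf1r, the receptor that carries the growth signal, was lower in mature neurons with a log2 fold of -0.61 ± 0.16 (edgeR adjusted p = 0.0107), at 11.05, 16.24 and 17.66 TPM in mature neurons and 23.48 to 25.97 TPM in progenitors. Its slope in mature neurons was upward, 0.26, with an unadjusted p of 0.000209 that did not pass the adjustment. Igf2r, the imprinted receptor that clears Igf2, had 4.28, 5.06 and 4.98 TPM in mature neurons and 4.94 to 6.66 TPM in progenitors. Irs1, an adaptor of the insulin and IGF1 receptors, was lower in mature neurons with a log2 fold of -1.56 ± 0.13 (3.15e-05), and Igfbp3, a carrier of IGFs, with a log2 fold of -1.62 ± 0.16 (8.74e-05). So were the adaptor gene Grb14, with a log2 fold of -0.84 ± 0.12 (0.000565), and the insulin receptor gene Insr, with a log2 fold of -0.63 ± 0.09 (0.000567). Pappa2, which encodes a protease of IGF-binding proteins, was higher with a log2 fold of 3.77 ± 0.54 (0.000489), at low levels of 0.31 to 0.48 TPM in mature neurons and 0 to 0.16 TPM in progenitors. Igf2bp3, a fetal RNA-binding protein that binds Igf2 messages, had 3.24, 1.47 and 0.11 TPM in mature neurons and 3.04, 1.06, 0.67 and 0.19 TPM in progenitors. Its shared slope of -1.55 was steeper than that of any tested member (edgeR adjusted p 0.0612), and was -1.28 without the P16 mature neuron library. Igf2 and Igf2bp3 were both lowest at P16 in each population.

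A further list held 20 genes of the network known to decline in many organs of the mouse after birth, and 16 were tested. Between the populations 7 of the 16 were lower and 0 higher in mature neurons, against 30.0% and 28.8% of all genes, with a median log2 fold of -0.97. Ezh2, the histone methyltransferase of Polycomb, was lower with a log2 fold of -2.27 ± 0.15 (edgeR adjusted p = 1.22e-05), E2f8 with a log2 fold of -2.29 ± 0.32 (0.000463), Trp53 with a log2 fold of -1.20 ± 0.18 (0.000614) and the chromatin protein gene Hmga1 with a log2 fold of -1.98 ± 0.34 (0.00121). Unadjusted, 12 of the 16 had a downward slope in mature neurons, against 9.39% of all genes, 4 in progenitors, against 5.71%, and 13 for both together, against 11.2%, and none passed the adjustment. When the P16 library of mature neurons was left out, 2 of 17 had one in mature neurons, against 1.39%, and 11 of 17 for both together, against 6.75%. The median slopes were -0.36 in mature neurons and -0.29 in progenitors, smaller than those of the members. Gpc3, a glypican that restrains growth, had 1.48, 0.49 and 0.14 TPM in mature neurons and 3.43, 1.74, 2.17 and 1.27 TPM in progenitors. All 15 of the list whose TPM averaged at least 1 had a lower TPM at the last age than at the first in both populations. That held for 32.7% of all genes. Igf2bp3 and Gpc3 were the 2 at least 2-fold lower in both, against 2.06%.

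Over all 7 libraries the members other than Peg3 resembled each other in their course. With log2 CPM centred within each population, Pearson's r of Ndn was 0.98 with Meg3, 0.976 with Grb10 and 0.971 with Plagl1, and r of H19 was between 0.774 and 0.916 with the other members that were lower with age. Peg3 had r between -0.599 and -0.178 with the others. Without the P16 mature neuron library, over 6 libraries, r of Ndn was 0.954 with Meg3, 0.986 with Grb10 and 0.838 with Plagl1, that of H19 ran from 0.256 with Plagl1 to 0.812 with Mest, and that of Peg3 was 0.077 to 0.84 with the others, so the negative r of Peg3 rests on that library. Without that library r of Mest was -0.065 with Plagl1, 0.45 with Grb10, 0.475 with Ndn and 0.497 with Meg3. Over all 7 libraries the same pairs had r from 0.832 to 0.903. Such r values are descriptions over 7 libraries that share depth, sort and the P16 library. Among 10807 genes compared, r above 0.99 was found for every member, with genes outside the lists of members and other imprinted genes. The genes most like Ndn were Otx2 (0.999), Nomo1 and Lpcat3, those most like Grb10 were Dchs1 (0.999), Cers6 and Sh3bgrl2, and those most like Meg3 were Slc25a25 (0.999), Vav3 and Wbp1l. For Plagl1 they were Ifngr2, Gprin1 and Camk2b, for H19 Tmem74b, Nasp and Cenpe, for Mest Kif18a, Adss and Micu2, and for Peg3 Pithd1, Polh and Asb3.

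Markers of other cells moved with age too. Beside the erythroid sum, the 14 leukocyte markers summed to 59.6, 42.0 and 171 TPM in mature neurons and 16.6, 21.6, 18.5 and 42.1 TPM in progenitors, and the 9 markers of ensheathing glia to 53.7, 68.8 and 126 TPM in mature neurons and 22.1 to 40.8 TPM in progenitors. The 21 mesenchymal markers, from cells in which H19, Igf2, Dlk1 and Meg3 are also known to be expressed, summed to 225, 215 and 245 TPM in mature neurons and 784 to 993 TPM in progenitors. Most of that sum was Vim, the intermediate filament vimentin, and the other 20 summed to 84.2, 82.7 and 163 TPM in mature neurons and 78.7, 94.6, 87.0 and 113 TPM in progenitors. They did not move as one. Of the 12 whose TPM averaged at least 1, 2 ended lower than they began in both populations, against 32.7% of all genes. Fbln1 was at least 2-fold lower in both, against 2.06%. Col1a1, one of several collagen genes listed, had 3.17, 9.35 and 50.53 TPM in mature neurons and 7.79, 17.28, 10.22 and 30.15 TPM in progenitors. Dcn, the decorin gene, had 65.19, 54.4 and 44.28 TPM in mature neurons and 30.76, 36.41, 43.48 and 27.26 TPM in progenitors. The 12 endothelial markers summed to 13.28, 9.34 and 12.35 TPM in mature neurons and 15.46, 15.88, 14.78 and 13.18 TPM in progenitors.

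Some marker sums were lower at the last age than at the first in both populations, as were most members. They were those of sustentacular, horizontal basal, endothelial and progenitor cells. The 11 markers of sustentacular cells, the supporting cells of the epithelium, summed to 4690, 4712 and 3662 TPM in mature neurons and 3146, 3036, 3835 and 2373 TPM in progenitors. Of these 11, 8 had a lower TPM at the last age in both populations, against 32.7% of all genes. The keratin genes Krt18 and Krt8 were the 2 at least 2-fold lower in both, against 2.06%. Unadjusted, 5 of the 11 had a downward shared slope, against 11.2%. The 8 markers of horizontal basal cells, the reserve stem cells, summed to 21.76, 12.71 and 15.05 TPM in mature neurons. In progenitors they summed to 15.72, 14.94, 13.78 and 13.06 TPM. The 10 progenitor markers summed to 109, 131 and 59.4 TPM in mature neurons and to 1747, 1325, 1306 and 1235 TPM in progenitors. In progenitors 6 of the 10 had a downward slope unadjusted, against 5.71%, and their median slope was -0.33. The 10 immature neuron markers summed to 2045, 2061 and 1476 TPM in mature neurons and to 7122 to 8788 TPM in progenitors. The progenitor and immature neuron sums of mature neurons were lowest in the P16 library, as were the 7 members other than Peg3 and Dlk1. The part of these cells in the members' levels was not tested.

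**Figure D5:**
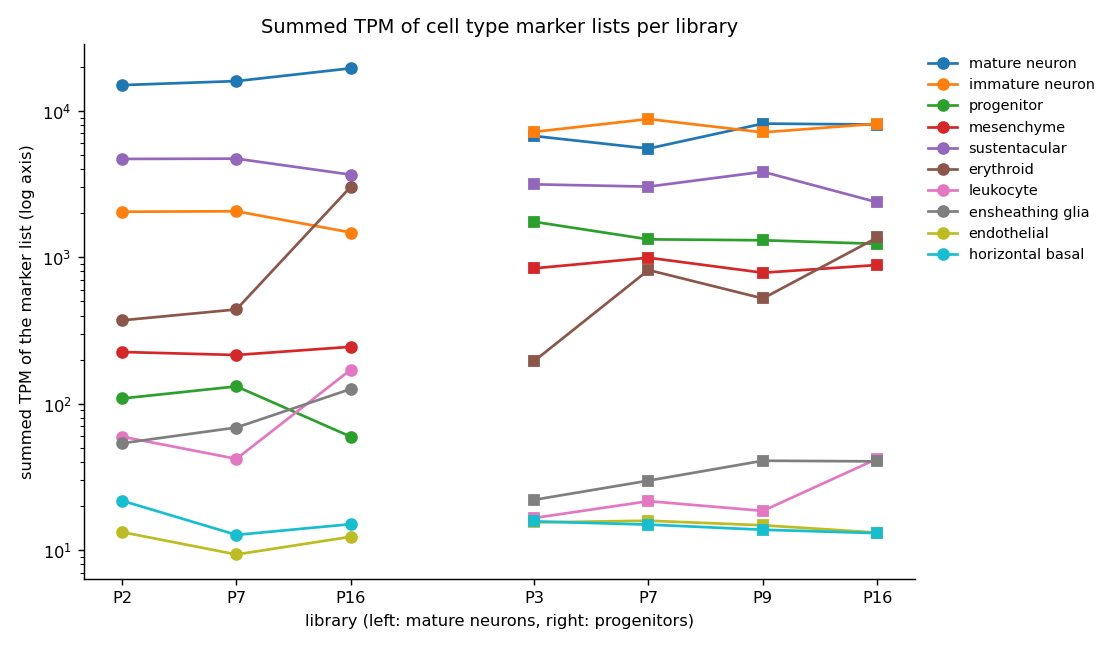
Summed TPM (vertical axis, log scale) of 10 marker lists in each library, mature neurons on the left (circles, P2, P7 and P16) and progenitors on the right (squares, P3, P7, P9 and P16), with 1 line per list. The erythroid sum is highest in the P16 mature neuron library at 3037 TPM, where the progenitor and immature neuron sums are lowest among mature neurons.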

How the data were processed

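The authors deposited 2 tables over 54532 genes: whole-number read counts per gene and values in TPM, a level per transcript length. Per the submitters' processing notes, bcl2fastq 2.18, STAR 2.6.1c, RSEM and the build mm10 were used, in roles that are not given. Per the labels' protocols, cells were sorted by FACS, RNA was extracted with TRIzol and TruSeq Stranded mRNA libraries were made. The 4 entries of the count table that name no gene held 23.5% to 27.2% of a library and were left out. Gene positions came from GENCODE M21 on GRCm38, which held 54495 of the IDs. Genes lying at least 90% under opposite-strand exons kept 5.14 counts per TPM and kilobase (n = 24), against 8.78 for genes with no shared exon and 0 for genes under same-strand exons, so the counting used strand.

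The main test was edgeR 4.0.16 in R 4.3.3 (quasi-likelihood, TMM, filterByExpr, Benjamini-Hochberg at 0.05), with 5 residual degrees of freedom for the population difference, 4 for the shared slope and 3 for separate slopes. Alternatives were DESeq2 1.42.0 and limma 3.58.1 on log2(TPM + 1) or log2(TPM + 0.1) with a mean TPM of at least 1, DESeq2 size factors, no filter, linear day, an age block or covariate, and leaving out each library. Limma on log2(TPM + 1) served for Igf2. Scripts were tested on simulated data. The members and gene lists were chosen with earlier results of these data known. Named genes were all members, up to 5 called genes with the smallest p of each list, and the 3 genes most like each member with a mean of at least 5 CPM; other genes of the lists were chosen after their values were seen.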

Additional observations from a re-analysis of the deposited data

Results flagged for a closer look

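Dlk1 had 0.14 TPM in the P3 progenitor library and 0 in the other 3 progenitor libraries, so its gap to the others was the whole range of the group. The value is 1 count. Of the 9 members, each tested for such a gap in the 4 progenitor libraries, this was the 1 found. A single count in a group otherwise at 0 always gives a gap of the whole range. The usual chance rate of about 1 in 20 groups therefore does not apply to it.

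Peg3 had an age slope that differed in direction between the populations, by 0.231 log2 units per doubling of postnatal day, mature neurons minus progenitors. Its TPM was higher at each next age in mature neurons and lower at each next age in progenitors. The edgeR test of the difference gave an unadjusted p of 0.00613 and an adjusted p of 0.806, and the difference stayed between 0.163 and 0.346 over the alternatives run on that scale. Without the P16 mature neuron library the slope in mature neurons was 0.03 ± 0.06 (SE). The opposite direction of the slopes therefore rests on that library.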

How the results depend on the processing

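With 1 library per age, 3 to 5 residual degrees of freedom in the main test and low counts for several members, the depth limits what the age tests can call. Fits on fewer libraries, among them the age block, leave fewer residual degrees of freedom than the main fit of the same comparison. Igf2 and Dlk1 could not be tested on counts. The labels give no replicate numbers. Pairing the populations by the ages they share, P7 and P16, was possible: that age block called 5 members between the populations, against 2 in the same 4 libraries with no block. Of 640 values recomputed for single members, 550 kept their direction and side of the threshold, 57 passed it where the main test did not, and 33 changed sign. The 2 population calls, Peg3 and Mest, held in every alternative run.

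The members called between the populations were 2 in the main test, 5 with P7 and P16 only and 4 with log2 of the day as covariate. For the slope in mature neurons, where the main test called 0 members and 0 genes, no filter on low counts gave 2 members and 140 genes, DESeq2 gave 5 and 775, and linear day gave 6 and 1169. Leaving out 1 library gave 0 to 6 members and 0 to 815 genes, the highest without mature P7. Slope fits without a mature neuron library take no spread from mature neurons. In progenitors, DESeq2 called 1 member and 143 genes, 4 genes were called without both P16 libraries, and 0 to 3 genes without 1 library. For the difference of slopes, DESeq2 called 6 genes, 3 were called without both P16 libraries, and 0 to 2 without 1 library. For the shared slope, no filter gave 4 members and 770 genes, DESeq2 5 and 1500, linear day 4 and 1124, and leaving out 1 library 0 to 5 members and 0 to 986 genes. Members at least 2-fold lower in both populations were 5 in all libraries, 2 without both P16 libraries, and 2 to 5 without 1 library. The share of all genes was not computed for every library left out. With mature P16 left out as well, chosen after seeing the data, DESeq2 called 4 genes in mature neurons, 3 members and 217 genes in progenitors, 6 genes for the difference, and 4 members and 244 genes for the shared slope, where linear day called 2 members and 6 genes. The cause of these shifts was not tested.

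Sign changes were these. Without both P16 libraries, chosen after seeing the data, the population difference of H19 was 0.34, the slope of Plagl1 in mature neurons 0.046, the slope differences of Plagl1 and Ndn 0.10 and 0.21, and the shared slope of Peg3 -0.050. The slope difference of Grb10 was -0.11 with limma on log2(TPM + 0.1) and -0.045 with linear day. With DESeq2 and linear day without mature P16, the slope of Plagl1 in mature neurons was 0.044 and 0.014, the slope difference 0.22 and 0.051 for Plagl1 and 0.39 and 0.030 for Ndn, and the shared slope of Peg3 -0.078 and -0.019, and the slope difference of Meg3 was 0.19 with DESeq2. Leaving out 1 library, the population difference ran from -1.43 to 0.47 for H19 and from -0.41 to 0.078 for Plagl1, and the slope from -0.995 to 0.038 for Plagl1 in mature neurons and from -0.20 to 0.16 for Mest in progenitors. The shared slope of Peg3 ran from -0.078 to 0.067. Slope differences ran from -1.03 to 0.53 for Grb10, -0.82 to 0.21 for Plagl1, -1.93 to 0.38 for Ndn, -1.96 to 0.24 for Meg3 and -0.44 to 0.027 for Igf2.
On the TPM scale the median population difference of all genes shifted to -0.10 for log2(TPM + 1) and -0.11 for log2(TPM + 0.1), against 0.01 in the main test.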
